A study of Mus musculus with 19 samples.

Results

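The genes described here are the Fgf and Wnt genes of the mouse: every protein-coding gene whose symbol is Fgf or Wnt followed by a number, with an optional a or b for Wnt. The rule found 41 of the 41388 genes counted, 22 Fgf and 19 Wnt, and all 41 were matched by Ensembl identifier to GENCODE M21. RNA was measured in whole brains of embryos at 13.5 days post coitum (E13.5; 3 Wiz+/+ and 3 WizMommeD30/+ males, 2 Wiz+/+ and 2 WizMommeD30/+ females) and in cerebellums at 56 days post partum (3 Wiz+/+ and 3 WizMommeD30/+), all of strain FVB. WizMommeD30 came from a chemical mutagenesis screen in FVB/NJ mice of Line3. Both alleles of that line carry an array of GFP transgenes driven by α-globin regulatory sequence of human origin. Carriers were bred to Line3 mice to keep the mutation, and the embryos came from crosses between carriers. Wildtype and heterozygous mice thus shared this background. Wiz is a zinc finger protein of the complex of the histone methyltransferases EHMT1 and EHMT2, and heterozygotes have a single working copy. The labels give no sex for the cerebellums, which the study's methods describe as male. The question addressed was which of these genes are transcribed in each tissue and which differ with the loss of a Wiz copy.

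Fgf genes encode growth factors that bind receptor tyrosine kinases together with heparan sulphate, and in the early neural tube they pattern the forebrain, the midbrain-hindbrain boundary and the hindbrain. Wnt genes encode lipid-modified glycoproteins that bind Frizzled receptors with Lrp5, Lrp6 or other co-receptors; some are best known for stabilising beta-catenin, others for signalling without it. In the embryonic brain they mark the dorsal midline, the cortical hem and the midbrain-hindbrain boundary, and in the cerebellum several are made by granule and Purkinje neurons and guide synapse formation. The name ligand does not hold for the whole set: Fgf11, Fgf12, Fgf13 and Fgf14 encode intracellular proteins that bind voltage-gated sodium channels and are not secreted. Fgf15, the mouse counterpart of human FGF19, is grouped here with the endocrine Fgf genes.

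Promoter sequences are shown for the 4 genes on which the genotype comparisons turned: Fgf3, which was named in the question, and Wnt3, Wnt7a and Wnt16, the members that passed the genotype test in cerebellum. Each window runs from 250 bases before to 50 bases after a RefSeq transcription start (GRCm38.p6), is written 5′ to 3′ on the gene's strand, and has in capitals every CCCTC or its reverse complement GAGGG. The forward motif gave its name to CTCF (the CCCTC-binding factor), whose binding the study set beside that of Wiz; matches on both strands were counted, including overlapping ones.
Fgf3, chr7:144838362-144838661, plus strand: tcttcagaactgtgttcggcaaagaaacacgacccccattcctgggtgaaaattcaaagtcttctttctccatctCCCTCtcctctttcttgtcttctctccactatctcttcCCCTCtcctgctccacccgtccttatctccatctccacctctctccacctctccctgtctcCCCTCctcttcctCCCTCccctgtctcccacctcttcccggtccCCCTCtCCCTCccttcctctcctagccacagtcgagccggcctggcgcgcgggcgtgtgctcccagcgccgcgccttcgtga
Wnt3, chr11:103773925-103774224, plus strand: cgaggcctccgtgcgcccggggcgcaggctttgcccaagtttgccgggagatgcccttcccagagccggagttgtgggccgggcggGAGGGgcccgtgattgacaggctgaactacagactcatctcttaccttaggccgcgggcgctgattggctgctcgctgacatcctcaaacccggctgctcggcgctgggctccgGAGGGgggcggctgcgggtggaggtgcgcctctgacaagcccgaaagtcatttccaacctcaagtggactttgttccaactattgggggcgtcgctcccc
Wnt7a, chr6:91411304-91411603, minus strand: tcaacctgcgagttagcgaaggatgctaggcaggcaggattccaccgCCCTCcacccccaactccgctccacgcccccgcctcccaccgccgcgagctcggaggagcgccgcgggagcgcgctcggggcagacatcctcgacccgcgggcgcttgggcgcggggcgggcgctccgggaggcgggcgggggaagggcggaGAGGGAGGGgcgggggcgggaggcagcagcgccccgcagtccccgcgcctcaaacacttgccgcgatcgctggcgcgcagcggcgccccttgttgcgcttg
Wnt16, chr6:22287977-22288276, plus strand: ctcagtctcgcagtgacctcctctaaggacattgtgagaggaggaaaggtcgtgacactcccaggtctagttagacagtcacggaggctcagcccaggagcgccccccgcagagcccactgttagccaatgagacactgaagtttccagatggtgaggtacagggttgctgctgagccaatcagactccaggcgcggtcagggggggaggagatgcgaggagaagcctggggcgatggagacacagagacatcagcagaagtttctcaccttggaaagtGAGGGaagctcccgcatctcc
Fgf3 held 6 matches, all on its own strand and within a stretch rich in C and T. Its window follows the RefSeq start and lies wholly inside the GENCODE M21 gene, which starts upstream at 144838083. Wnt7a held 3, Wnt3 held 2 and Wnt16 held 1. RefSeq windows were found for 31 of the 41 genes (40 windows, since some have several starts). CCCTC or GAGGG was present in 87.5% of those windows and in 65.95% of all 32851 promoter windows of that length, and 5 or more matches were present in 12.5% against 3.78%. The Fgf and Wnt windows held a median of 23.5 CpG dinucleotides against 7 over all windows, and Fgf3 (14) and Wnt16 (10) were below that median while Wnt7a (42) and Wnt3 (24) were above it. A match describes the letters of the window, not binding.

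Total counts per library ran from 16386029 to 50459755, the smallest being the second male Wiz+/+ brain. Wiz itself was at 95.4 to 95.5 CPM (the count per 1000000 counts of its library) in Wiz+/+ and 66.6 to 67.7 CPM in WizMommeD30/+ cerebellums, and at 182 to 200.1 CPM against 118 to 130 CPM in the brains, so each library matched its genotype label. Purkinje and granule cell markers were high in all cerebellums, and the 6 forebrain markers summed to 0.551 to 0.810 CPM there, with Emx2 and Dlx2 at 0 counts. A pair of libraries stood apart. In the second female Wiz+/+ brain the 6 forebrain markers summed to 341 CPM, against 473 to 556 CPM in the other 9 brains, and the 7 hindbrain markers summed to 104.5 CPM against 70.9 to 87.9 CPM. In the second WizMommeD30/+ cerebellum the 9 choroid plexus markers summed to 990 CPM, against 1791 to 2102 CPM in the other 5. Values that moved with these libraries are given below with and without them.

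The E13.5 brain transcribed the intracellular Fgf genes, the paired genes Wnt7a and Wnt7b, and a set of ligands of the embryonic signalling centres. A gene was called expressed in a group when it reached 1 CPM in every library of the group. In the 5 Wiz+/+ brains 22 of 41 genes were expressed (11 Fgf and 11 Wnt), and the other 19 were below 1 CPM in at least 1 brain, with a count in at least 1. Levels of different genes are compared per length, as CPM per kilobase (kb) of annotated exon. Fgf13, an intracellular Fgf of the growth cone and axon, was the highest at 26.7, 23.4 and 24.6 CPM per kb in the 3 male and 24.5 and 29.2 CPM per kb in the 2 female brains. Wnt7b, made by cortical progenitors and neurons, followed at 17.2, 18.2, 15.96, 15.7 and 13.9 CPM per kb in the same order. The ranges of these 2 genes overlapped neither with each other nor with the gene below.

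The next genes formed a group whose ranges ran into each other. Fgf11 was at 8.96, 8.60, 8.49, 8.18 and 9.51 CPM per kb, and Wnt7a, a ligand of neural progenitors, was at 9.18, 9.35, 7.96, 7.58 and 7.45 CPM per kb. Fgf15, which is transcribed in the diencephalon, midbrain and other progenitor zones, was at 6.33, 7.16, 7.19, 8.56 and 6.50 CPM per kb. Wnt5a, the best known of the Wnt ligands that act without beta-catenin, was at 5.67, 6.03, 6.17, 7.03 and 5.87 CPM per kb. The ranges of these neighbours over the brains overlapped. Within single brains Fgf15 was above Wnt5a in all 5, while the other neighbours changed order between brains. Wnt5a and Fgf14 (4.12 ± 0.168 CPM per kb, SD, n = 5) did not overlap. Fgf14 was above Wnt3 (3.56 ± 0.277), and Wnt3, Wnt8b (3.23 ± 1.28), Fgf17 (3.10 ± 1.02), Fgf12 (2.63 ± 0.350) and Fgf3 (2.62 ± 0.396) overlapped each with the next. Fgf3 was thus the twelfth in the order. Its range overlapped that of Fgf17, a gene of the midbrain-hindbrain boundary, and was clear of the next gene, Fgf18.

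**Figure D1:**
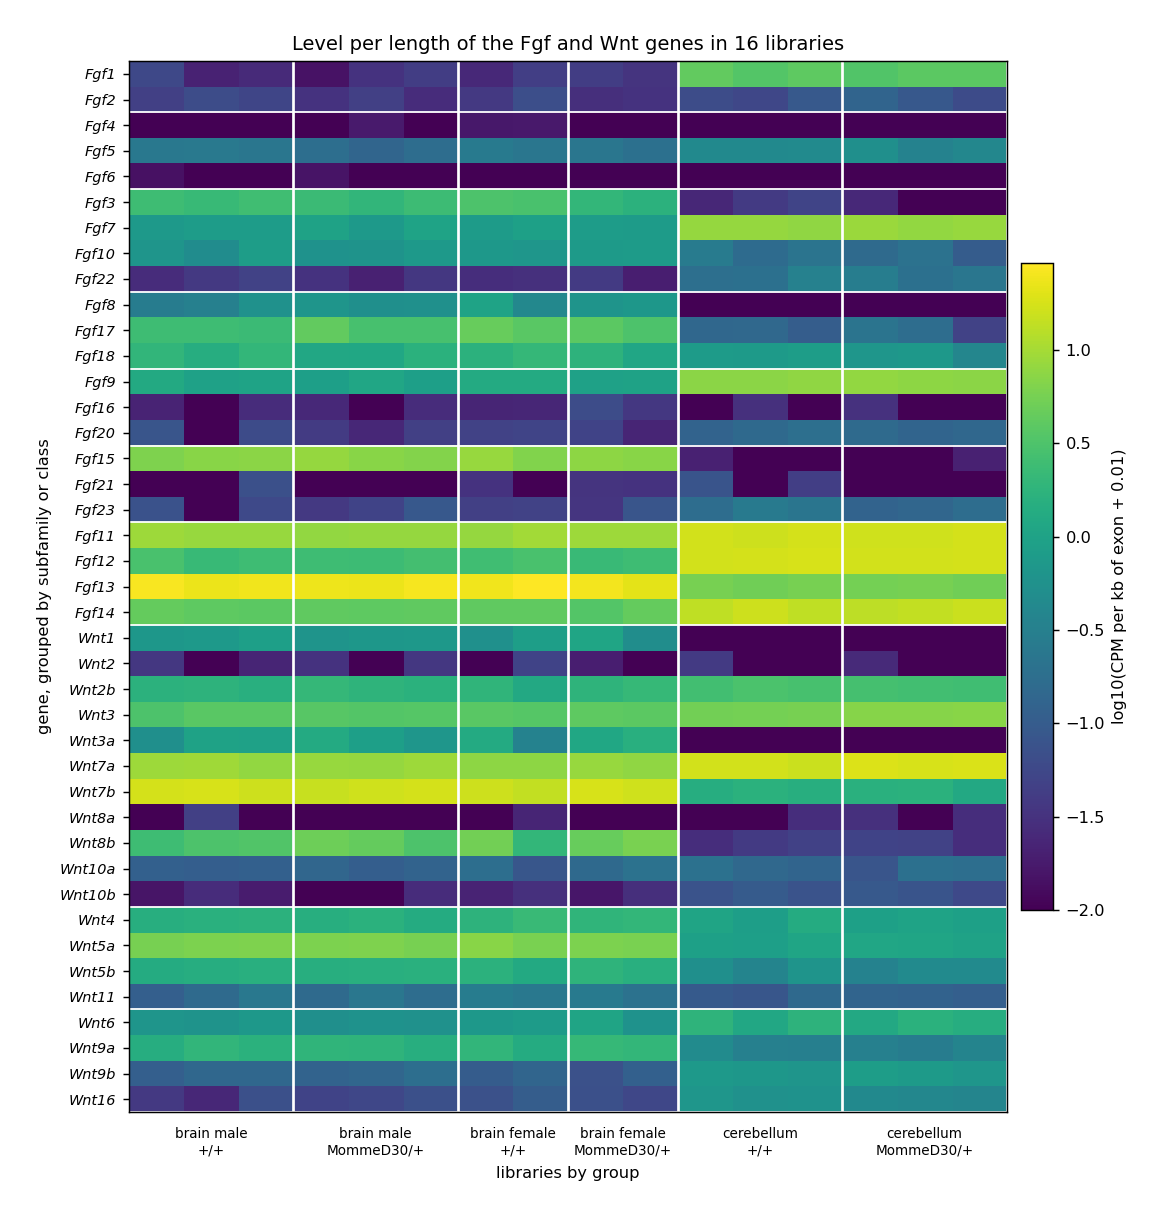
Level per length of the 41 genes (rows, grouped by subfamily or class, white lines between groups) in the 16 libraries (columns, grouped by tissue, sex and genotype), as log10 of CPM per kb of exon plus 0.01. Fgf13 and Wnt7b are brightest in the brains, Fgf11, Fgf12, Fgf14 and Wnt7a in the cerebellums, and Fgf8, Wnt1 and Wnt3a are at 0 counts in all 6 cerebellums.

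By subfamily, the intracellular Fgf genes made up 69.3% ± 3.21 (SD, n = 5) of the summed per-length level of the Fgf genes in Wiz+/+ brain. Fgf15 and the other endocrine genes followed with 12.2% ± 1.67, nearly all of it from Fgf15, since Fgf21 and Fgf23 had 3 and 15 counts in 5 brains together. The Fgf8 subfamily (Fgf8, Fgf17 and Fgf18, the signals of the midbrain-hindbrain boundary and of the forebrain's front edge) took 9.04% ± 1.70, and the Fgf7 subfamily (Fgf3, Fgf7, Fgf10 and Fgf22) took 6.93% ± 0.539. Fgf8 itself was low in whole brain, at 0.695 ± 0.404 CPM, and did not reach 1 CPM in every brain. Among the Wnt genes, the class usually assigned to beta-catenin signalling (11 genes, led by Wnt7b and Wnt7a) made up 74.2% ± 2.27, and the Wnt5a class (Wnt4, Wnt5a, Wnt5b and Wnt11) made up 20.5% ± 1.97.

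In the 3 Wiz+/+ cerebellums 18 of 41 genes were expressed (8 Fgf and 10 Wnt), 5 had no count, which allows up to 0.0330 CPM (3 counts over the group), and 18 lay between. The order differed from that of the embryo. Fgf12 was at 16.8, 17.6 and 18.0 CPM per kb, Fgf11 at 16.7, 15.7 and 17.3, Wnt7a at 17.0, 17.0 and 15.6, and Fgf14 at 13.5, 16.1 and 13.6 CPM per kb. These 4 led the set with ranges that overlapped from each to the next. Fgf14 is the gene of spinocerebellar ataxia type 27 in people, and Wnt7a is released by granule cells onto mossy fibres. Fgf7 (8.26, 8.14 and 7.80 CPM per kb), an organiser of inhibitory synapses, and Fgf9 (7.29, 7.19 and 7.69 CPM per kb), which acts on Bergmann glia, came next, each clear of its neighbours. Wnt3 (5.51 ± 0.186 CPM per kb, SD, n = 3), a Purkinje cell gene, and Fgf13 (5.50 ± 0.223) overlapped, and Fgf1 (3.96 ± 0.468) and Wnt2b (2.84 ± 0.248) were each lower than the gene before them. The intracellular Fgf genes took 71.3% ± 0.969 of the summed Fgf level, close to their share in the embryo, but from Fgf12, Fgf11 and Fgf14 in place of Fgf13.

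Of the 41 genes, 14 were expressed in Wiz+/+ libraries of both tissues, 8 in brain alone (Fgf3, Fgf10, Fgf15, Fgf17, Fgf18, Wnt1, Wnt5b and Wnt8b), 4 in cerebellum alone (Fgf1, Fgf5, Wnt9b and Wnt16) and 15 in neither. These are counts against a fixed level. The difference itself was tested between the 3 male Wiz+/+ brains and the 3 Wiz+/+ cerebellums with edgeR's quasi-likelihood test, adjusted over all 16840 genes kept. Of 31 Fgf and Wnt genes kept, 29 passed at an adjusted p of 0.05, 15 lower and 14 higher in cerebellum. Across all genes 86.5% passed, 43.6% lower and 42.9% higher, so that a share this high was the rule between these tissues. Tissue, age and the separate preparation of the 2 sets cannot be told apart, and in whole tissue fewer cells of a type cannot be told apart from less RNA per cell.

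The genes lower in cerebellum included those known from the signalling centres of the embryonic brain. Fgf15 had 976, 359 and 756 counts in the male brains (19.3, 21.9 and 22.0 CPM) and 1, 0 and 0 counts in the cerebellums, a ratio of 1877 with a 95% counting interval from 336 to 74170. Wnt3a, of the cortical hem, was at 1.43, 2.75 and 2.59 CPM in the male brains and Wnt1, of the midbrain-hindbrain boundary and dorsal midline, was at 1.58, 1.71 and 2.12 CPM. Fgf8 was at 0.376, 0.427 and 0.756 CPM. None of these 3 genes had a count in any of the 6 cerebellums, and against 3 counts over the Wiz+/+ group they were at least 61.6-fold, 54.1-fold and 15.6-fold higher in brain. Wnt8b, another gene of the hem and hypothalamus, fell by 6.41 on the log2 scale (SE 0.263, adjusted p = 3.11e-12), from 8.38, 11.1 and 11.6 CPM to 0.0654, 0.101 and 0.130 CPM.

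Fgf3 belonged to the same set. It was at 5.71, 4.94 and 5.82 CPM in the male Wiz+/+ brains, had 1, 2 and 3 counts in the Wiz+/+ cerebellums, and fell by 6.11 on the log2 scale (SE 0.261, adjusted p = 5.37e-12). The WizMommeD30/+ cerebellums had 1, 0 and 0 counts. The genotype effect on Fgf3 in cerebellum was therefore not measurable at this depth. Fgf17 (−4.03), Wnt7b (−3.28), Wnt5a (−2.42), Fgf13 (−1.97) and Wnt9a (−1.93) were also lower, and Fgf10, Wnt5b, Fgf18 and Wnt4 fell by 1.49, 1.29, 0.96 and 0.32 on the log2 scale. The Wnt4 call was lost with DESeq2 and with fold limits of 0.7 and 1.3. It was also lost without Wiz+/+ cerebellum library 1 or 2 or male Wiz+/+ brain library 2 or 3.

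The genes that rose were led by Fgf1, a ligand of all Fgf receptors that is made by mature neurons, from 0.258, 0.0610 and 0.0873 CPM in male brain to 23.7, 18.8 and 22.3 CPM in cerebellum (log2 fold change 7.19, SE 0.202, adjusted p = 3.14e-14). Wnt16, a ligand studied mostly in bone and blood stem cells, rose by 4.21 (SE 0.274, adjusted p = 9.56e-10), from 0.119, 0.0610 and 0.262 CPM to 2.85, 2.46 and 2.48 CPM. Fgf7 rose by 3.60 (SE 0.0828), from 2.32 to 2.68 CPM up to 25.3 to 26.8 CPM, and Fgf9 by 2.95 (SE 0.0851), from 4.46 to 5.83 CPM up to 33.4 to 35.7 CPM. Fgf22, which granule cells make and which organises the mossy fibre terminals upon them, rose by 3.21 (SE 0.479) but stayed under 1 CPM, and its gene overlaps Rnf126 on the other strand. Fgf1, Wnt16, Fgf7, Fgf9 and Fgf22 were named as the largest called rises without overlap between the libraries of the tissues. The lack of overlap was thus a condition of the choice and not a separate result. The remaining rises were Fgf12 (2.95), Wnt9b (2.73), Fgf14 (2.01), Wnt6 (1.49), Fgf11 (1.14), Wnt7a (1.12), Fgf5 (1.11), Wnt2b (1.01) and Wnt3 (0.88), all on the log2 scale. Fgf2 (log2 fold change 0.75, adjusted p = 0.0536) and Wnt11 (−0.40, adjusted p = 0.315) were the 2 genes tested by edgeR and not called. Fgf2 was called without Wiz+/+ cerebellum library 2 or male Wiz+/+ brain library 2, and Wnt11 without male Wiz+/+ brain library 1.

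**Figure D2:**
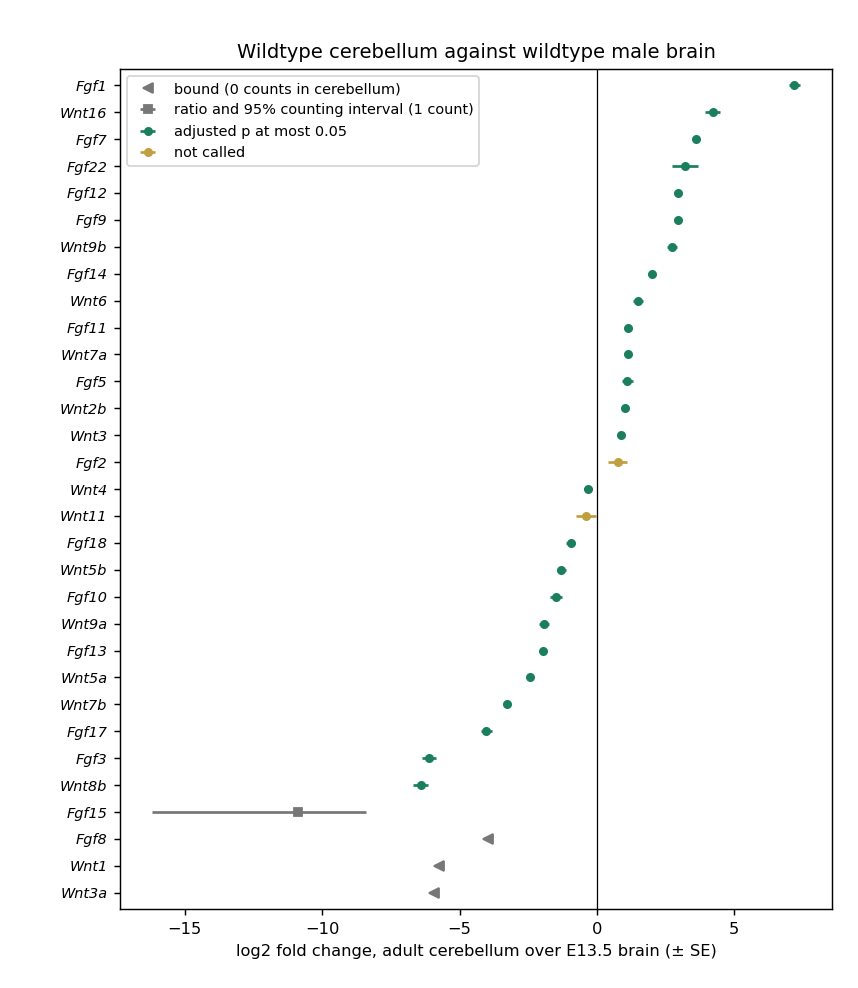
Log2 fold change of cerebellum over male brain in Wiz+/+ libraries for the 31 genes tested (rows), with standard errors as bars (green, adjusted p at most 0.05; yellow, not called). For Wnt3a, Wnt1 and Fgf8 the grey triangles are bounds set by 3 counts, and for Fgf15 the grey square is the log2 ratio of counts with its 95% interval; Fgf15 lies farthest to the left and Fgf1, at 7.19, farthest to the right.

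Paralogues did not all share a direction. Within the Fgf9 subfamily, Fgf9 rose, and Fgf16 and Fgf20 had at most 22 counts in either Wiz+/+ group, too few for the main test. Fgf20 had 9 counts in male brain and 22 in cerebellum, the same direction as Fgf9. It overlaps Micu3 on the other strand, which had 37651 counts over all libraries against 66 for Fgf20. Within the intracellular genes, Fgf13 fell while Fgf11, Fgf12 and Fgf14 rose, and within the pair Wnt7a and Wnt7b the first rose and the second fell. Genes that lie side by side differed in level. Those tested among the neighbours named below moved the same way between tissues: Wnt9b and Wnt3 rose, and Fgf3 and Fgf15 fell. There were 7 pairs of members closer than 200 kb, with no other coding gene between them. Wnt9b and Wnt3 lie 24.3 kb apart on chromosome 11 and were at 0.559 and 10.8 CPM in male Wiz+/+ brain and at 3.09 and 16.9 CPM in cerebellum. Fgf3, Fgf4 and Fgf15 lie within one stretch of chromosome 7, with 2.93 kb between Fgf3 and Fgf4 and 31.3 kb between Fgf4 and Fgf15. Fgf4, a gene of the early embryo and limb, had no count in the male Wiz+/+ brains, between neighbours at 5.49 and 21.1 CPM.

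The 10 genes left out of the tissue test as too low were Fgf4, Fgf6, Fgf16, Fgf20, Fgf21, Fgf23, Wnt2, Wnt8a, Wnt10a and Wnt10b. None of them reached 0.5 CPM in any library. The highest mean was that of Wnt10a in Wiz+/+ brain (0.273 ± 0.0886 CPM, SD, n = 5) and that of Fgf23 in Wiz+/+ cerebellum (0.386 ± 0.0892 CPM, SD, n = 3). Of the 41 genes, 15 overlap another annotated gene, among them Fgf2 with Nudt6, Fgf7 with Fam227b, Fgf15 with an antisense RNA and Wnt5b with Fbxl14. The kit is not described as stranded, so reads from such a gene and its partner cannot be told apart. Fgf3, Wnt3, Wnt7a and Wnt16 overlap no other annotated gene.

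No Fgf or Wnt gene passed the genotype test used here in E13.5 brain. Among 27 genes tested in males none was called by edgeR or by DESeq2, with 4 at an unadjusted p under 0.05 (8.45% of all genes), and 0.196% of all genes tested were called. Among 29 tested in females none was called by either tool, with 3 at an unadjusted p under 0.05 (6.4% of all genes), and 0.111% of all genes were called. With all 10 brains and sex as a covariate, none of 30 was called by either tool, with 6 at an unadjusted p under 0.05 (11.8% of all genes), against 0.477% of all genes called. The median log2 fold change of the genes tested was −0.02 in males and −0.06 in females, against 0.00 in both over all genes.

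Fgf3 (ENSMUSG00000031074, chr7:144838083-144844436, plus strand), the gene with 6 CCCTC matches in the RefSeq window above, is a signal of the hindbrain, the infundibulum and the inner ear. It had 288, 81 and 200 counts in male Wiz+/+ brains (5.71, 4.94 and 5.82 CPM) and 212, 181 and 187 counts in male WizMommeD30/+ brains (5.26, 4.42 and 5.47 CPM). These groups overlapped. In females it had 346 and 297 counts in Wiz+/+ (7.28 and 6.75 CPM) and 210 and 180 in WizMommeD30/+ (4.60 and 3.87 CPM), so that both heterozygous brains lay below both wildtype brains. The log2 fold change was −0.15 in males (SE 0.107, adjusted p = 0.752) and −0.73 in females (SE 0.141, unadjusted p = 0.00106, adjusted p = 0.372 by edgeR's quasi-likelihood test). Over both sexes it was −0.40 (SE 0.114, adjusted p = 0.191).

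The female difference was as large without the second Wiz+/+ brain (log2 fold change −0.79, SE 0.179, adjusted p = 0.156, with the lone wildtype brain assumed to vary like the others) and without the first (−0.68, SE 0.182, adjusted p = 0.0785), and DESeq2 gave an adjusted p of 0.203. It did not pass the adjusted p threshold in any of these fits. The study, which used DESeq, listed Fgf3 among the genes significantly lower in female WizMommeD30/+ brains, so the call differed between analyses. The test of the difference between the sexes gave −0.59 (SE 0.171, unadjusted p = 0.00486, adjusted p = 0.985), and the sexes were not shown to differ. Female Wiz+/+ brains were the highest of all for Fgf3, and female WizMommeD30/+ brains fell among or below the male values. Beside this, the 7 hindbrain markers summed to 87.9 and 104.5 CPM in female Wiz+/+ and 81.9 and 86.4 CPM in female WizMommeD30/+ brains, and the 8 pituitary and infundibulum markers ranged from 27.8 to 36.4 CPM and from 26.8 to 35.8 CPM. The part of these regions in the Fgf3 values was not tested.

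**Figure D3:**
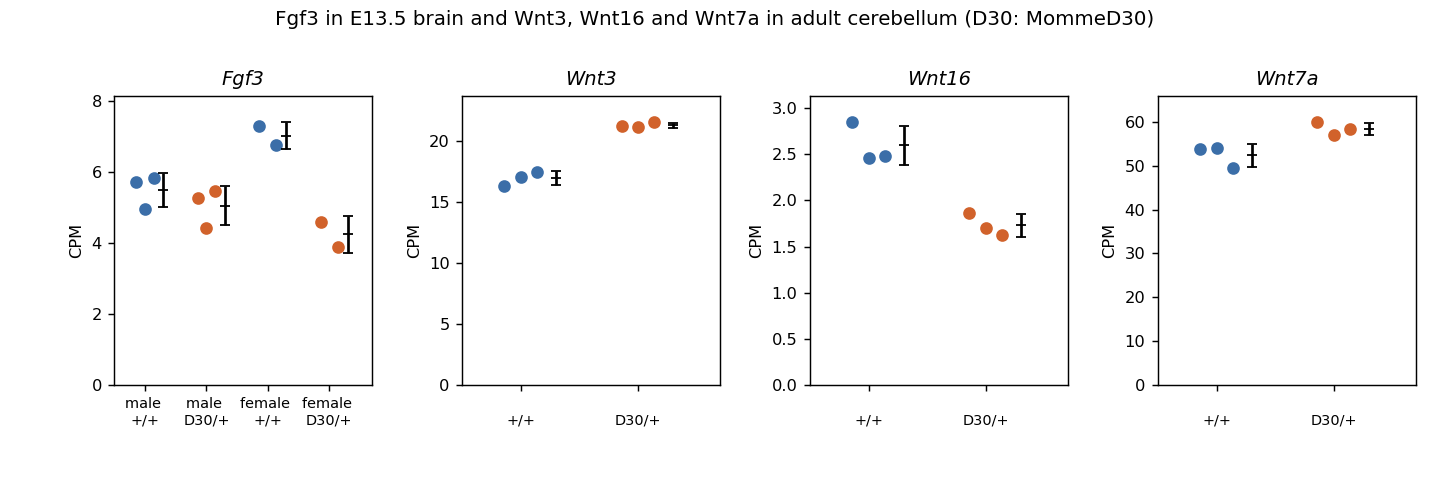
CPM of Fgf3 in the 10 E13.5 brains and of Wnt3, Wnt16 and Wnt7a in the 6 cerebellums; each point is a library (blue, Wiz+/+; orange, WizMommeD30/+) and the bars give the mean and SD. Both female WizMommeD30/+ brains lie below both female Wiz+/+ brains for Fgf3 while the male groups overlap, and in cerebellum the genotypes do not overlap for any of the 3 Wnt genes.

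The other genes at an unadjusted p under 0.05 in a brain comparison were few, and none held after adjustment. In males Wnt8b (log2 fold change 0.53, SE 0.156, adjusted p = 0.341) and Fgf17 (0.49, SE 0.149, adjusted p = 0.366) had positive values, and Fgf18 (−0.48) and Fgf5 (−0.61) had negative ones. Fgf17 was at 4.06, 4.15 and 3.87 CPM in male Wiz+/+ and 7.14, 4.86 and 4.88 CPM in male WizMommeD30/+ brains, without overlap, but at 7.73 and 6.39 CPM and 6.53 and 5.31 CPM in the female groups. In females Fgf9 (−0.45, SE 0.126, adjusted p = 0.773) and Wnt7b (0.20, SE 0.0731, adjusted p = 0.773) were the others. The Wnt7b value rested on the second female Wiz+/+ brain, the lowest of all 10 brains for this gene (68.3 CPM against 73.5 to 89.4 CPM): without it the log2 fold change was 0.11 (SE 0.0788, adjusted p = 1.0), while that of Fgf9 was −0.45 (adjusted p = 1.0). Over both sexes they were Fgf9 (−0.29), Fgf18 (−0.42), Fgf2 (−0.82), Fgf5 (−0.44) and Wnt8b (0.51), of which Fgf2 and Fgf5 stayed under 1 CPM in every brain. Without the second female Wiz+/+ brain the values over both sexes were 0.32 for Wnt8b (adjusted p = 0.559) and −0.60 for Fgf2 (unadjusted p = 0.0842, adjusted p = 0.644). Without the filter on low counts, Wnt8b (adjusted p = 0.000567) and Fgf17 (adjusted p = 0.0175) were called in males by edgeR. In that fit 369 of all 25431 genes were called, against 33 of 16848 with the filter.

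Several genes known from the cortical hem and dorsal midline varied widely between single brains. Wnt8b was at 8.38, 11.1 and 11.6 CPM in male Wiz+/+, 17.4, 15.2 and 11 CPM in male WizMommeD30/+, 18.4 and 6.75 CPM in female Wiz+/+ and 15.9 and 20.2 CPM in female WizMommeD30/+ brains. Wnt3a was at 1.43, 2.75 and 2.59 CPM, then 3.60, 2.44 and 1.81, then 3.64 and 0.909, then 3.13 and 4.24 CPM in the same order. The lowest brain for both, and for Wnt2b (5.18 CPM against 6.43 to 8.80 CPM), was the second female Wiz+/+ brain, the library with the low forebrain markers. Of the 22 genes at 1 CPM or more in all 10 brains, that brain was the lowest for 6 and the highest for 5.

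The female comparison of these genes therefore turned on which wildtype brain was used. The log2 fold change of Wnt8b in females was 0.52 with both wildtype brains, −0.03 without the second and 1.42 without the first. That of Wnt3a was 0.68 with both, 0.02 without the second and 2.01 without the first. That of Wnt2b was 0.33, 0.06 and 0.66. Leaving out either brain left a lone wildtype library, so only effect sizes are given for these fits. In males Wnt8b was called by edgeR without the third WizMommeD30/+ brain (log2 fold change 0.68, adjusted p = 0.0220) and not with it. Without that brain 157 of all 17155 genes were called, against 33 of 16848 with it. The part of the amount of forebrain in each library in these values was not tested.

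**Figure D4:**
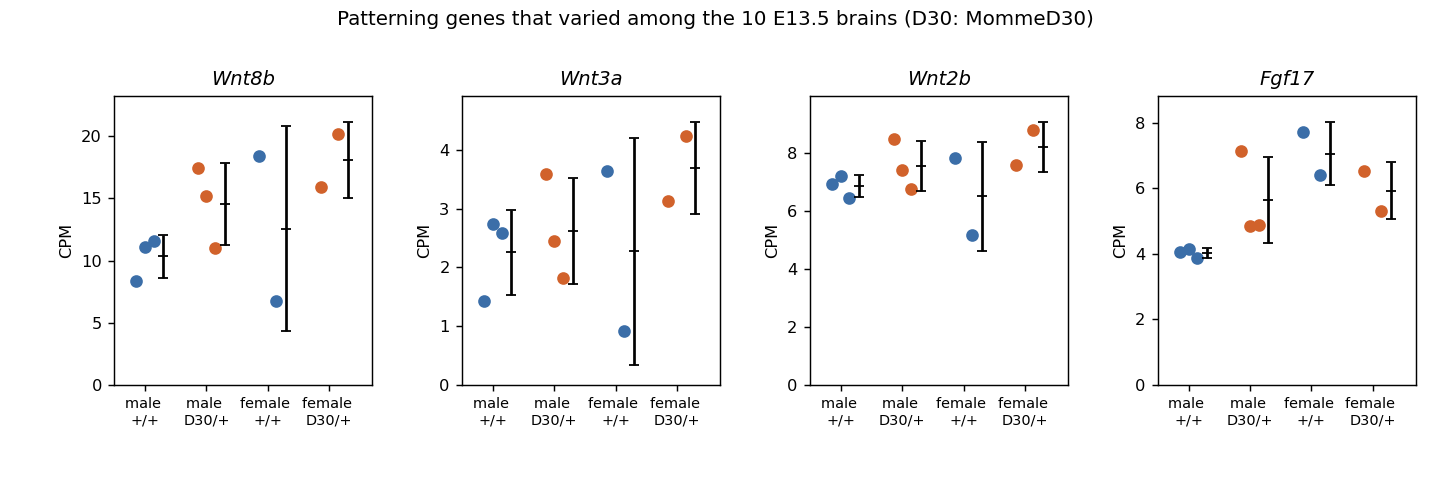
CPM of Wnt8b, Wnt3a, Wnt2b and Fgf17 in each of the 10 E13.5 brains (blue, Wiz+/+; orange, WizMommeD30/+; bars, mean and SD), by sex and genotype; the genes were chosen after their values were seen. The 2 female Wiz+/+ brains lie far apart for Wnt8b (18.4 and 6.75 CPM) and Wnt3a (3.64 and 0.909 CPM), and the male Wiz+/+ brains are the lowest group for Fgf17.

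In cerebellum 3 of the 25 Fgf and Wnt genes tested passed the genotype test: Wnt3 and Wnt7a were higher and Wnt16 was lower in WizMommeD30/+. Across all 15979 genes 5.25% passed, 2.69% higher and 2.56% lower. The median log2 fold change of the 25 genes was −0.03, against 0.00 over all genes. With fold limits of 0.7 and 1.3 as well, Wnt16 alone of the 25 passed, against 0.832% of all genes.

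Wnt3 (ENSMUSG00000000125, chr11:103774150-103817957, plus strand) was at 16.3, 17.1 and 17.4 CPM in Wiz+/+ and 21.2, 21.1 and 21.5 CPM in WizMommeD30/+ cerebellums. Every heterozygous library lay above every wildtype library. The log2 fold change was 0.33 (fold 1.26, SE 0.0536, adjusted p = 0.00233), and it was called in each of 11 alternative fits, with adjusted p from 5.16e-05 to 0.0132. Without the second WizMommeD30/+ library, which was low in choroid plexus markers, it was 0.34 (adjusted p = 0.00473). In the brains Wnt3 was at 9.53, 11.5 and 11.5 CPM in male Wiz+/+, 11.3, 10.6 and 11.1 CPM in male WizMommeD30/+, 11.5 and 10.8 CPM in female Wiz+/+ and 12.3 and 11.96 CPM in female WizMommeD30/+, and it was not called there.

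Wnt7a (ENSMUSG00000030093, chr6:91363981-91411363, minus strand) was at 53.8, 54.0 and 49.4 CPM in Wiz+/+ and 59.9, 56.9 and 58.4 CPM in WizMommeD30/+ cerebellums, again without overlap. Its difference was smaller, 0.16 on the log2 scale (fold 1.12, SE 0.0416, adjusted p = 0.0354). The call was lost in 4 of 11 alternatives: with DESeq2 (adjusted p = 0.0565) and without Wiz+/+ library 3 (0.203), WizMommeD30/+ library 1 (0.147) or WizMommeD30/+ library 3 (0.0715). Without the second WizMommeD30/+ library it was kept (adjusted p = 0.0350).

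Wnt16 (ENSMUSG00000029671, chr6:22288227-22298522, plus strand) had 87, 73 and 76 counts in Wiz+/+ and 53, 50 and 50 counts in WizMommeD30/+ cerebellums, which is 2.85, 2.46 and 2.48 CPM against 1.87, 1.70 and 1.62 CPM. Its promoter window held a single match, the fewest of the 4 shown. The groups did not overlap and the log2 fold change was −0.59 (fold 0.666, SE 0.150, adjusted p = 0.0313). It was the member with the fewest reads among the called genes. The call was lost in 6 of 11 alternatives: with DESeq2 (adjusted p = 0.139) and without Wiz+/+ library 1 (0.117) or 3 (0.0860) or WizMommeD30/+ library 1 (0.0723), 2 (0.0737) or 3 (0.0867). In brain it had 1 to 18 counts per library.

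Whether these effects differed between tissues was tested against the male brains. The difference of the genotype effects, cerebellum minus brain, was 0.29 for Wnt3 (SE 0.0943, unadjusted p = 0.00701, adjusted p = 0.291), 0.19 for Wnt7a (SE 0.0783, adjusted p = 0.417) and −0.97 for Wnt16 (SE 0.450, adjusted p = 0.4995). Of 32 Fgf and Wnt genes none was called by edgeR, with 3 at an unadjusted p under 0.05, against 0.26% of all genes called, and the effects were not shown to differ between tissues. For the difference between the sexes none of 30 was called, with 3 (Fgf3, Fgf17 and Wnt7b) at an unadjusted p under 0.05, and 0.0% of all 17620 genes were called (701 at an unadjusted p under 0.05). Without the second female Wiz+/+ brain the difference between the sexes for Wnt7b moved from 0.28 to 0.20 on the log2 scale (SE 0.107, unadjusted p = 0.0905, adjusted p = 1.0).

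Some markers of other cells were called between genotypes in cerebellum, where 5.25% of all genes passed. None was called of 9 choroid plexus, 6 microglia and 4 midbrain and hindbrain boundary markers tested. The same held for the pituitary and infundibulum, the skin, eye and muscle, and the hindbrain markers tested. The 9 erythroid markers summed to 80.0 to 123 CPM in Wiz+/+ and 138 to 247 CPM in WizMommeD30/+; 3 of the 5 tested were called higher (Alas2, Hba-a1 and Hba-a2), and Hbb-y and Hbb-bh1 had no count. The 6 oligodendrocyte markers summed to 4792 to 5148 CPM in Wiz+/+ and 4635 to 4835 CPM in WizMommeD30/+, with overlap. Of these markers Mag, Mbp and Cnp were called lower. The 8 neural progenitor and neuron markers summed to 1026 to 1050 CPM in Wiz+/+ and 961.5 to 1004 CPM in WizMommeD30/+, without overlap, with Nes, Sox2 and Tubb3 called lower. Of 6 Bergmann glia and astrocyte markers Gdf10 was called higher and Gfap lower, and Col1a1 of 9 meningeal and Cldn5 of 7 endothelial markers were called lower. The 6 Purkinje cell markers summed to 6215 to 6651 CPM and 6557 to 6679 CPM with none called, and the 7 granule cell markers to 5492 to 5534 CPM and 5346 to 5589 CPM, with Cbln3 called higher and Zic1 called lower. The part of cell composition in the Wnt3, Wnt7a and Wnt16 values was not tested.

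**Figure D5:**
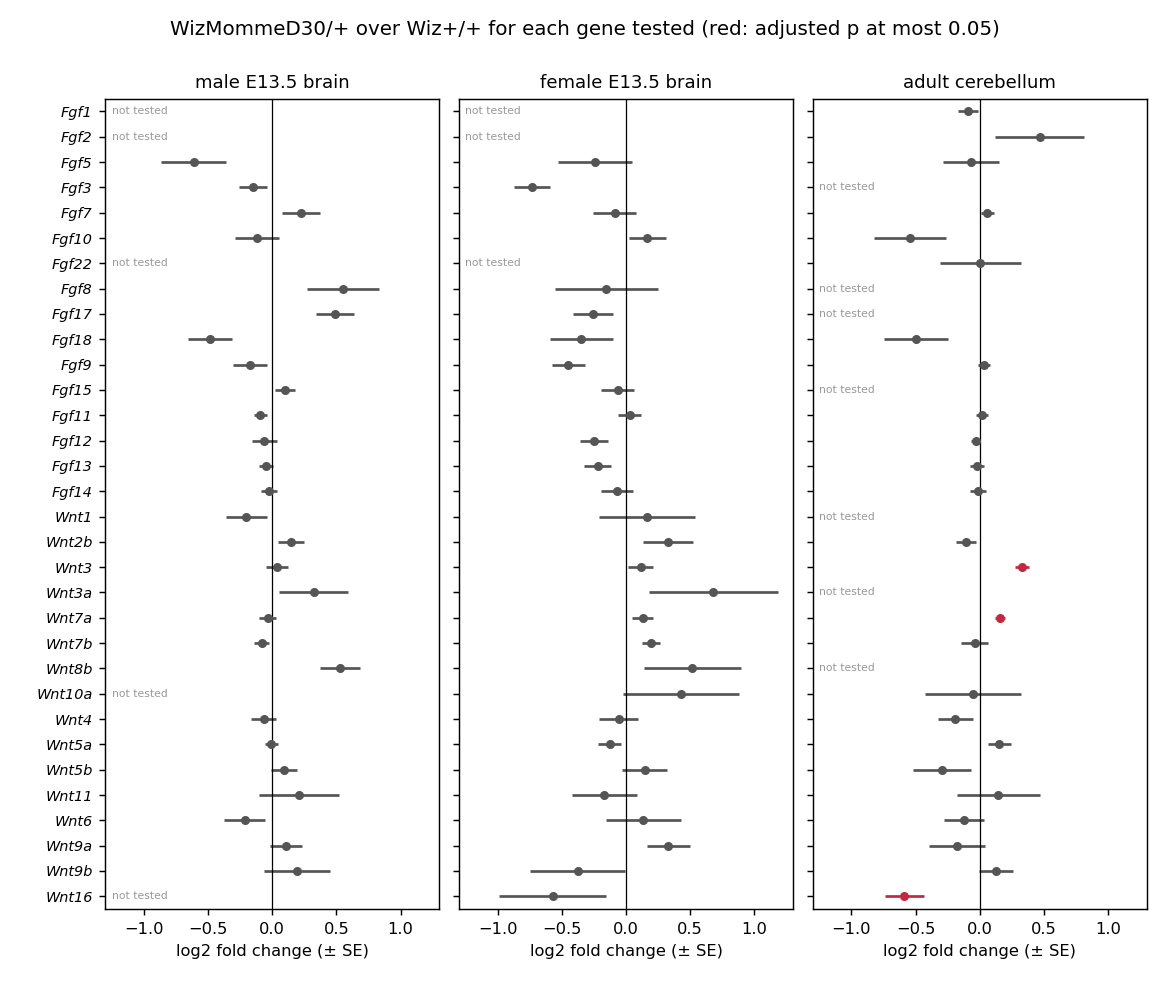
Log2 fold change of WizMommeD30/+ over Wiz+/+ with standard errors for the Fgf and Wnt genes tested in male brain, female brain and cerebellum; called genes are red. Wnt3 (0.33), Wnt7a (0.16) and Wnt16 (−0.59) in cerebellum are the called genes, and the female estimate of Fgf3 (−0.73) is the lowest of the female panel but is not called.

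The genes that receive and limit these signals were described from 7 lists with 67 genes: Fgf receptors, Fgf feedback and target genes, Wnt receptors, Wnt secretion, Wnt inhibitors, R-spondins with their receptors, and Wnt/beta-catenin targets. In brain none was called by edgeR or DESeq2, of 63 tested in males (7 at an unadjusted p under 0.05), 63 in females (6) and 64 in both sexes (8). Without the filter on low counts Il17rd, a feedback inhibitor of Fgf signalling, was called higher in males, 1 of 66 tested. In that fit 369 of all 25431 genes were called, against 33 of 16848 with the filter. Without the first female Wiz+/+ brain, the only wildtype left was the second, the library with low forebrain markers. The median log2 fold change of the pathway genes in females was then 0.016, against −0.005 with both wildtype brains. This median does not show how far single genes moved, and with a lone wildtype brain calls of single genes are not given.

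In cerebellum 6 of 58 were called (10.3%, against 5.25% of all genes). On the Fgf side the called genes were lower in WizMommeD30/+: of 5 receptor genes Fgfr1 (290.1 to 264 CPM, log2 fold change −0.13, adjusted p = 0.0247) and Fgfrl1, which binds Fgf without a kinase domain (−0.27, adjusted p = 0.0338), were called lower. Of 11 feedback and target genes Etv5, a transcription factor induced by Fgf signalling (105 to 85.1 CPM, −0.30, adjusted p = 0.00686), and Spred3, of a family that restrains the Ras pathway (37.5 to 32.3 CPM, −0.21, adjusted p = 0.00850), were called lower. On the Wnt side, Fzd3, a receptor for axon growth (12.6 to 16.7 CPM, 0.40, adjusted p = 0.0183), was called higher of 16 receptors, and Rnf43, which removes Frizzled from the membrane (8.38 to 10.4 CPM, 0.31, adjusted p = 0.0312), of 11 inhibitors. None of 3 secretion genes, 5 R-spondin genes or 7 targets was called by edgeR, with 0, 2 and 3 at an unadjusted p under 0.05. Over the alternatives the count ran from 0 without Wiz+/+ library 3 to 11 without the low-count filter, with 3 by DESeq2 (Fgfr1, Fzd3 and Spred3) and 5 without WizMommeD30/+ library 2 (Etv5, Rnf43, Spred3, Spry2 and Spry4).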

How the data were processed

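RNA-seq libraries (TruSeq RNA kit, 100-base single reads) had been aligned by the authors to mm10 with TopHat2 (2.0.11, from the submitters' processing notes) and counted per Ensembl gene with HTSeq (0.6.1). The deposited values are raw read counts, 1 table per sample. The counting mode and strand setting are not given in the sources used here. The 3 Wiz ChIP samples were not analysed here. Symbols, exon lengths and positions came from GENCODE M21 (GRCm38, the build of mm10). Genes were kept with edgeR's filterByExpr (minimum count 10), scaled by TMM and tested with edgeR's quasi-likelihood test (edgeR 4.0.16, R 4.3.3), with Benjamini-Hochberg adjustment over all genes kept and a threshold of 0.05. Each comparison used only its own groups. The alternatives were DESeq2 (1.42.0) and its size factors, no filter, a mean count of 50, fold limits of 0.7 and 1.3, a replicate block and leaving out each library. The code was tested on simulated data. The members, gene lists and alternatives were chosen with earlier results of these data known. Values in every library were given for Fgf3, for members called in a genotype test and for members among the 12 highest per length in a tissue, and the tissue test named the 5 largest called differences each way without overlap; of each pathway list, genes with the smallest p. Other members were named after their values were seen. Replicates are the samples that the labels number within a group (16386029 to 50459755 counts each), and p-values measure the spread between them. Intervals and limits from 3 counts cover counting error only (95% level). The kit and counting leave genes that overlap on opposite strands inseparable.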

Additional observations from a re-analysis of the deposited data

How the results depend on the processing

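No estimate for Fgf3, Wnt3, Wnt7a or Wnt16 changed sign under any alternative run. In male brain the number of Fgf and Wnt genes called moved from 0 to 2 without the low-count filter (Fgf17 and Wnt8b) and was 0 to 1 when each library was left out (Wnt8b without WizMommeD30/+ library 3). In female brain it was 0 to 2 (Wnt3a and Wnt8b without Wiz+/+ library 1). In cerebellum it moved from 3 to 1 with fold limits (Wnt16) and to 1 with DESeq2 (Wnt3), and was 1 to 3 when a library was left out, with Wnt3 alone left without Wiz+/+ library 3 or WizMommeD30/+ library 1 or 3. Between tissues it was 23 (mean count of 50) to 32 (no filter), fewer or more genes being tested. The log2 fold change of Fgf3 was −0.21 to −0.06 in males, −0.86 to −0.62 in females and −0.46 to −0.30 over both sexes, with no adjusted p under 0.0664. Over all genes the count called ran from 20 to 369 against 33 in males, 0 to 362 against 19 in females, 187 to 1268 against 839 in cerebellum, 50 to 217 against 84 over both sexes, 0 to 13 against 0 for the difference between sexes and 13 to 416 against 45 for the difference between tissues. The causes were not tested.

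The labels do not say whether equal replicate numbers mark pairs. Residuals of same-numbered libraries, centred within each group, correlated at −0.160 to −0.0642 in males, −0.0646 in females and −0.0847 to −0.022 in cerebellum. Centring constrains such values, most of all in females with 2 libraries per group, so they cannot decide whether samples were paired. With the replicate block, 0 Fgf and Wnt genes were called in male brain, female brain, both sexes and either test of a difference, 3 in cerebellum and 29 between tissues.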

Other observations

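The genes around these ligands also differed between male Wiz+/+ E13.5 brain and Wiz+/+ cerebellum, where 58 of 63 tested genes of the 7 pathway lists were called, 22 higher and 36 lower in cerebellum, against 86.5% of all genes; tissue, age and library set cannot be told apart. Of 7 Wnt/beta-catenin target genes 6 were lower, among them Lef1 (log2 fold change −2.62), Axin2 (−1.32) and Nkd1 (−2.01), and none was higher, and Sp5 (−0.03, adjusted p = 0.811) was not called. Of 16 Wnt receptor genes 12 were lower, led by Fzd2 (−3.88) and Fzd10 (−3.67), and 4 were higher (Ror1, Fzd7, Fzd4 and Fzd1). Of 11 Fgf feedback and target genes 7 were higher, with Etv1 (4.18), Etv5 (1.89) and Spry2 (1.87), and 4 were lower, with Il17rd (−3.05). Of 7 Fgf receptor and co-receptor genes 4 were higher, with Kl, the co-receptor of Fgf23, at 5.53 (1.43 to 1.74 CPM up to 59.6 to 67.6 CPM), and 2 were lower (Fgfr4 at −2.29 and Klb at −1.18).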
